A study of Homo sapiens with 8 samples.

Results

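The Wnt and beta-catenin genes described here are 10 of the 20030 genes measured in HCT-116, a cell line from a human colorectal carcinoma. They were chosen by name and are *CTNNB1*, *AXIN2*, *NKD1*, *RNF43*, *ZNRF3*, *LGR5*, *ASCL2*, *MYC*, *TCF7* and *LEF1*. RNA was sequenced in 8 libraries after transfection with small interfering RNA (siRNA), in 4 groups. The siNC group has 2 control libraries, siHHEX has 3 with *HHEX* knocked down, siYAP/TAZ has 2 with *YAP1* and the TAZ gene *WWTR1* knocked down, and siTEAD1/2/3/4 is 1 library in which the 4 *TEAD* genes were targeted. All groups are the same line, with no untransfected cells, and the numbered libraries of a knockdown also differ in siRNA. Nothing in the labels says that the replicates came from separate cultures, so the p-values measure only the spread between these libraries, which may be technical. The values are FPKM, the fragments of a gene scaled to the length of its transcript and to the total of the library. The FPKM values of a library summed to between 331663 in siYAP/TAZ 1 and 383423 in siHHEX 3, and its depth, known only relative to that of siNC 1, was between 0.941 and 1.11. Fewer cells that express a gene and less RNA per cell cannot be told apart in such bulk samples.

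In Wnt signaling, a secreted ligand binds a Frizzled receptor and an LRP co-receptor, and this stops the destruction complex from marking beta-catenin for degradation. Beta-catenin then enters the nucleus, binds TCF and LEF proteins on DNA and switches on target genes, several of which encode inhibitors of the same pathway. In the intestinal crypt this pathway maintains the stem cells, and most colorectal cancers carry a mutation that leaves it on. HCT-116 cells carry a mutant *CTNNB1* allele whose product escapes the destruction complex, beside a wild-type allele. HHEX is a homeobox transcription factor, and YAP and TAZ are the coactivators that TEAD proteins bring to DNA, so that the comparison asks how the beta-catenin program stood when each of these regulators was depleted.

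RefSeq promoter sequences (GRCh38.p14) were at hand for 4 of the 10 genes, *CTNNB1*, *LEF1*, *TCF7* and *RNF43*, with 6 start sites in all. The 250 bases before each start were searched on both strands for 4 TCF/LEF words, namely AACAAAG and the same word beginning with AT, TA or TT in place of AA, and for the TEAD word CATTCC, which shares no letters with them in any match shown. Of all 35116 promoters of that length, 12% held at least 1 TCF/LEF word and 11.9% at least 1 TEAD word. The stretch around the *RNF43* matches is shown because this gene was the one of the 10 that stood farthest from siNC in the siTEAD1/2/3/4 library. With median scaling *MYC* stood farther there, at -0.95 on the log2 scale against 0.88 for *RNF43*. The *TCF7* stretch is shown because that gene encodes a protein that reads the TCF/LEF word. The *RNF43* stretch lies before the second, downstream start of the gene, on the minus strand at chr17:58402888-58402917, within the gene and outside its annotated exons. The *TCF7* stretch lies before the second start of that gene, on the plus strand at chr5:134123557-134123586, also outside annotated exons. Capitals mark the matched words.
*RNF43*, second start: ggagccaCATTCCctgCATTCCtctactgt
*TCF7*, second start: ggccccactggAACAAAGgaggagagaggc
The first bases of the *RNF43* words lay at -189 and -180 from the start, and 0.94% of all promoters held 2 or more TEAD words. The word of *TCF7* began at -50. The first starts of *RNF43* and *TCF7* and the starts of *CTNNB1* and *LEF1* held none of these words, and a match is a description of the letters only.

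The targets of the siRNAs were checked first. *HHEX* was at 8.60 and 9.06 FPKM in siNC and at 3.25, 3.54 and 1.85 FPKM in siHHEX 1 to 3, a fall by 1.37 on the log2 scale (SE 0.22, limma, adjusted p = 0.00540). In siYAP/TAZ *HHEX* was at 4.80 and 7.12 FPKM, below both siNC libraries, which did not pass the test (log2 difference -0.52, adjusted p = 0.196). *YAP1* was at 20.2 and 19.7 FPKM in siNC and at 6.90 and 8.39 FPKM in siYAP/TAZ, which did not pass the test (log2 difference -1.28, adjusted p = 0.0681). The siHHEX libraries also differed in *YAP1*, at 5.77, 17.4 and 6.93 FPKM (log2 difference -1.07, adjusted p = 0.0429), and the difference was -0.77 (adjusted p = 0.172) once corrected for the GC content and length of the transcripts. *WWTR1* fell from 6.80 and 6.72 FPKM to 2.64 and 2.58 FPKM in siYAP/TAZ (log2 difference -1.10, SE 0.20, adjusted p = 0.0156). In the siTEAD1/2/3/4 library *TEAD4* was at 5.56 FPKM against 20.3 and 21.3 FPKM in siNC, *TEAD1* at 9.02 against 18.3 and 19.0 FPKM and *TEAD2* at 2.73 against 4.10 and 3.47 FPKM, whereas *TEAD3* was at 9.08 against 7.36 and 6.99 FPKM. *TEAD1* was also lower in siHHEX, at 6.99, 10.2 and 5.30 FPKM (adjusted p = 0.00641). *TEAD2* rose in siHHEX to 6.495, 8.02 and 7.18 FPKM (log2 difference 0.78, adjusted p = 0.00709), where the GC correction left 0.45 (adjusted p = 0.0990). *TEAD4* fell in siYAP/TAZ to 12.5 and 13.6 FPKM (log2 difference -0.63, adjusted p = 0.0250), and by 0.62 (adjusted p = 0.0195) after the correction.

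The line kept its epithelial transcripts, with *KRT8* at 1591 and 1707 FPKM in siNC and *EPCAM* at 174 and 162 FPKM. Of 8 colorectal epithelial markers, *KRT20* was between 0.577 and 1.62 FPKM, and *VIL1* and *LGALS4*, which mark differentiated enterocytes, were at most 0.033 and 0.132 FPKM. The summed FPKM of these markers was 3366 and 3509 in siNC, 3111, 3438 and 3653 in siHHEX, 2017 and 1970 in siYAP/TAZ and 2707 in siTEAD1/2/3/4, and *KRT18* fell by 1.22 (adjusted p = 0.000861) and *KRT8* by 0.88 (adjusted p = 0.00227) on the log2 scale in siYAP/TAZ. In siHHEX 3 of the 6 tested epithelial markers had an adjusted p under 0.05, beside 32.9% of all tested genes. *CDX2* rose by 0.42 (adjusted p = 0.0420, and 0.12 with adjusted p = 0.525 after the GC correction). *EPCAM* had a log2 difference of -0.38 (adjusted p = 0.0290, and -0.27 with adjusted p = 0.105 after the correction) and *KRT18* one of -0.29 (adjusted p = 0.0348, and -0.69 with adjusted p = 0.00509 after it), both lower. Of 11 markers of immune cells, fibroblasts and endothelium, *CD68*, which epithelial cells also express at a low level, was the most abundant in every library at 3.52 to 7.33 FPKM. Their summed FPKM was 4.80 and 4.79 in siNC, 4.44, 4.70 and 7.18 in siHHEX, 8.60 and 8.19 in siYAP/TAZ and 6.65 in siTEAD1/2/3/4. Without *CD68* and *COL1A1* the sum was 0.725 in siHHEX 3 and 0.874 in siYAP/TAZ 2 and at most 0.168 in the other 6 libraries, with *COL3A1* at 0.235 and 0.283 FPKM. Of the 3 endothelial markers, *CDH5* was at 0 in both, *PECAM1* was at 0.0231 and 0.0292 FPKM, its highest values, beside at most 0.01495 in the other libraries, and *VWF* was at 0.0294 and 0.0590 FPKM beside at most 0.0381. The part of these transcripts in the results below was not tested beyond the values without both libraries.

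In siNC the 10 genes spanned a wide range of levels per length. *MYC* was at 90.0 ± 1.36 FPKM (SD, n = 2), *CTNNB1* at 78.3 ± 1.61, *RNF43* at 6.66 ± 0.078, *AXIN2* at 4.89 ± 0.79, *ZNRF3* at 3.07 ± 0.077, *TCF7* at 1.57 ± 0.019 and *NKD1* at 0.717 ± 0.085 FPKM. Each of these was above the next in both siNC libraries. *LGR5*, *ASCL2* and *LEF1* were listed at 0 FPKM in both. The order held in all 8 libraries for *CTNNB1* above *RNF43*, *AXIN2* above *ZNRF3*, *ZNRF3* above *TCF7* and *TCF7* above *NKD1*. It did not for *MYC* and *CTNNB1*, since *MYC* was the higher in the siNC and siHHEX libraries and *CTNNB1* in the siYAP/TAZ and siTEAD1/2/3/4 libraries. *RNF43* was above *AXIN2* in 6 of 8 libraries, the exceptions being siHHEX 1 and siHHEX 2.

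**Figure D1:**
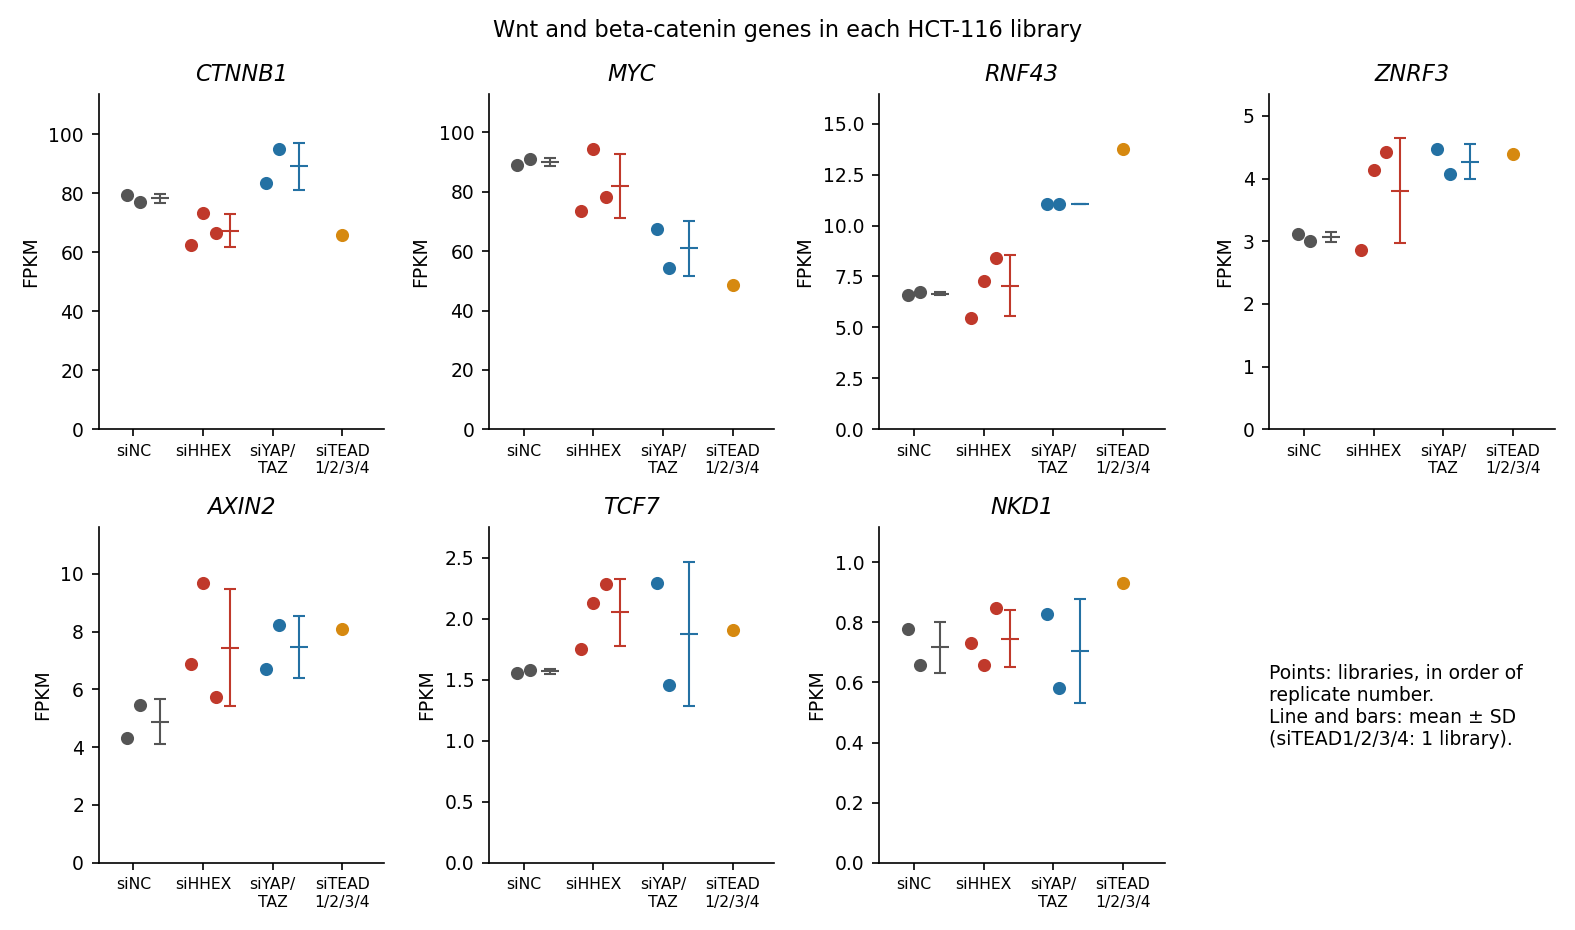
FPKM of the 7 genes with values above 0 in every library, by group, with a point per library and the mean ± SD of each replicated group beside it. *RNF43* sits at 11.06 and 11.04 FPKM in siYAP/TAZ and 13.7 FPKM in siTEAD1/2/3/4, above every siNC and siHHEX library, and *MYC* sits below every siNC and siHHEX library in both of these knockdowns. *LGR5*, *ASCL2* and *LEF1* are not drawn because at most 1 library held a value above 0.

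Of the 10 genes, 6 passed the filter of at least 1 FPKM in at least 2 libraries (*CTNNB1*, *AXIN2*, *RNF43*, *ZNRF3*, *MYC* and *TCF7*, all at 1 FPKM or more in every library), and 4 did not (*NKD1*, *LGR5*, *ASCL2* and *LEF1*). A gene was called when its adjusted p in limma, over all 10677 genes tested on log2(FPKM + 1), was under 0.05. Against siNC, 0 of the 6 genes were called in siHHEX, where 32.9% of all tested genes were. In siYAP/TAZ 0 of the 6 were called beside 8.28% of all tested genes. Between siHHEX and siYAP/TAZ, whose differences use no siNC library although the spread of siNC enters the fit, 3 of the 6 genes were called beside 39.3% of all tested genes. Of these, *MYC* was higher in siHHEX (13.5% of all tested genes were called higher) and *CTNNB1* and *RNF43* were lower (25.9% lower). In the siTEAD1/2/3/4 library, for which no test was made, 3 of the 6 genes were past a 1.5-fold difference from the siNC mean beside 6.33% of all tested genes, with *RNF43* and *AXIN2* higher (4.15% of all genes) and *MYC* lower (2.18%). The median log2 difference of the 6 genes was 0.14 in siHHEX and 0.28 in siYAP/TAZ, beside -0.01 and 0.08 for all tested genes, and it was 0.29 in siTEAD1/2/3/4 beside 0.06. The siHHEX, siYAP/TAZ and siTEAD1/2/3/4 comparisons share the 2 siNC libraries.

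**Figure D2:**
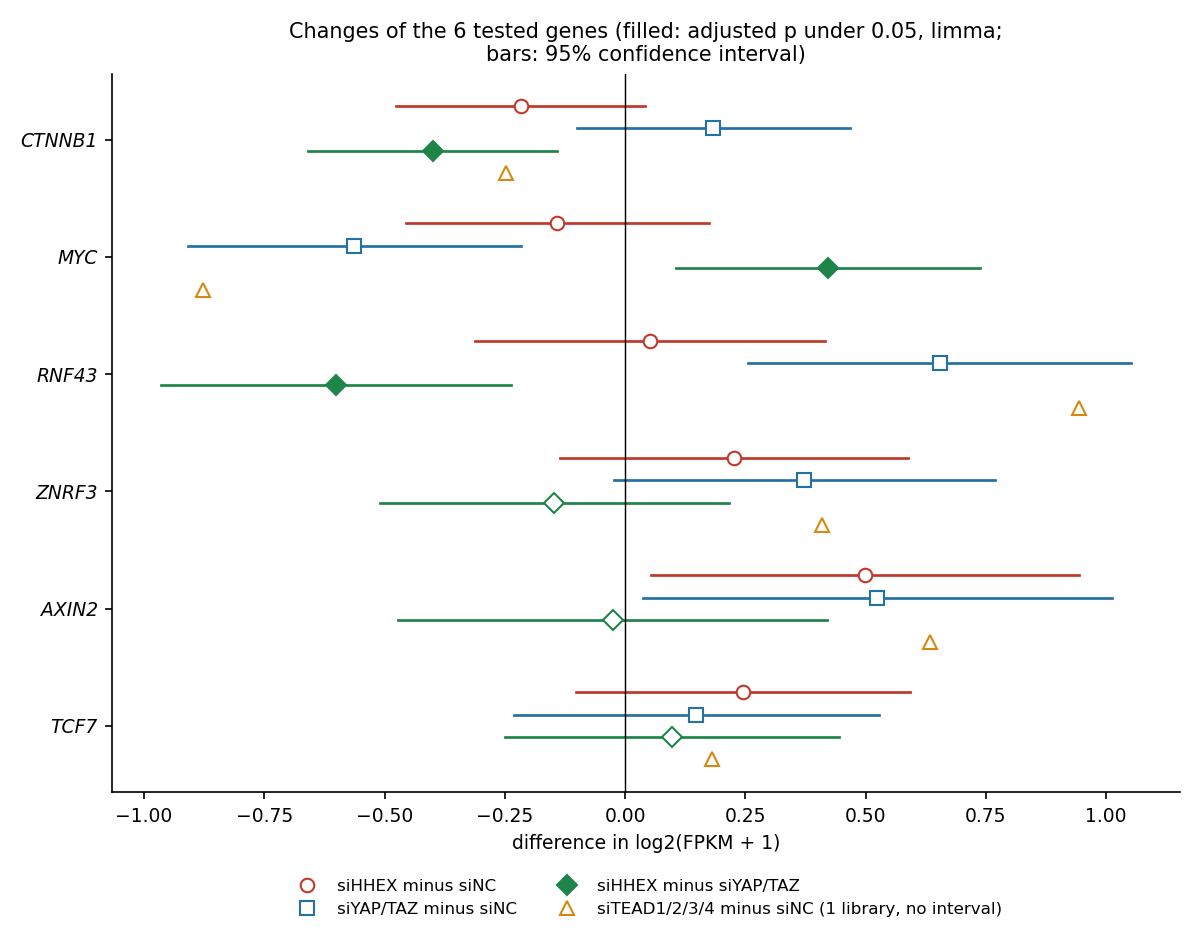
Differences in log2(FPKM + 1) of the 6 tested genes, with 95% confidence intervals from limma for siHHEX and siYAP/TAZ against siNC and for siHHEX against siYAP/TAZ, and the single siTEAD1/2/3/4 library as a triangle with no interval. Filled symbols mark the 3 calls, *CTNNB1*, *MYC* and *RNF43* between siHHEX and siYAP/TAZ, and the *AXIN2* points of siHHEX (0.50), siYAP/TAZ (0.52) and siTEAD1/2/3/4 (0.63) all lie to the right of 0.

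*CTNNB1*, at chr3:41194741-41260096 on the plus strand of GRCh38, encodes beta-catenin, which is the transcriptional arm of the pathway and also a part of adherens junctions. It was at 79.4 and 77.2 FPKM in siNC, at 62.3, 73.3 and 66.5 FPKM in siHHEX, at 83.5 and 94.9 FPKM in siYAP/TAZ and at 65.7 FPKM in siTEAD1/2/3/4. All 3 siHHEX libraries lay below siNC and both siYAP/TAZ libraries above it, without overlap. Neither difference passed the test, at -0.22 (95% CI -0.48 to 0.04, adjusted p = 0.162) in siHHEX and 0.18 (95% CI -0.10 to 0.47, adjusted p = 0.379) in siYAP/TAZ. The siYAP/TAZ difference was 0.09 without siYAP/TAZ 2, 0.27 without siYAP/TAZ 1 and 0.07 with median scaling. Between siHHEX and siYAP/TAZ the gene was lower in siHHEX by a log2 difference of -0.40 (SE 0.12, adjusted p = 0.0240, lower in 3 of 3 libraries), beside a median of -0.13 over all tested genes and of -0.41 over the 2134 with 40 to 45% GC in the transcript, the range that holds *CTNNB1*. These values are transcript levels and do not measure the amount of beta-catenin protein, on which the pathway acts.

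*AXIN2*, at chr17:65528563-65561648 on the minus strand, encodes a scaffold of the destruction complex and is the most widely used readout of beta-catenin activity. Its FPKM values were 4.33 and 5.44 in siNC, 6.89, 9.68 and 5.74 in siHHEX, 6.71 and 8.22 in siYAP/TAZ and 8.09 in siTEAD1/2/3/4. Every knockdown library was above both siNC libraries, with siHHEX 3 only just so. The siHHEX mean of 7.44 ± 2.03 FPKM (SD, n = 3) and the siYAP/TAZ mean of 7.47 ± 1.07 FPKM (n = 2) were 152% and 153% of the siNC mean. On the log2 scale the differences were 0.50 (95% CI 0.05 to 0.94, unadjusted p = 0.0321, adjusted p = 0.0774 in limma) and 0.52 (95% CI 0.04 to 1.01, unadjusted p = 0.0378, adjusted p = 0.155 in limma). Neither passed the test. The siTEAD1/2/3/4 library stood 0.63 above siNC, and 0.50, which is under 1.5-fold, above siNC 2 alone. In siHHEX the gene was called with median scaling (adjusted p = 0.0420) and without siHHEX 3 (log2 difference 0.65, adjusted p = 0.0399). Without siHHEX 2 the difference was 0.32 (adjusted p = 0.132), and without siNC 1 it was 0.36 (adjusted p = 0.386). The difference between siHHEX and siYAP/TAZ was -0.03 (95% CI -0.47 to 0.42), and its sign turned with median scaling, to 0.15.

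*RNF43*, at chr17:58353676-58417595 on the minus strand, and *ZNRF3*, at chr22:28883572-29057488 on the plus strand, encode related transmembrane ubiquitin ligases that remove Frizzled receptors from the cell surface. *RNF43* was at 6.61 and 6.72 FPKM in siNC, at 5.45, 7.27 and 8.41 FPKM in siHHEX, at 11.06 and 11.04 FPKM in siYAP/TAZ and at 13.7 FPKM in siTEAD1/2/3/4. The siYAP/TAZ and siTEAD1/2/3/4 libraries were above all others, while the siHHEX libraries lay on both sides of siNC. The siYAP/TAZ mean was 166% of the siNC mean, with a log2 difference of 0.65 (95% CI 0.26 to 1.05, unadjusted p = 0.00467, adjusted p = 0.0531 in limma), just short of the threshold. The adjusted p was 0.0182 in a fit of siYAP/TAZ and siNC alone, 0.161 with no filter on low values, 0.288 without siNC 1, 0.267 without siNC 2, 0.117 without siYAP/TAZ 1 and 0.208 without siYAP/TAZ 2. In siHHEX the log2 difference was 0.05 (95% CI -0.31 to 0.42). *RNF43* was lower in siHHEX than in siYAP/TAZ (log2 difference -0.60, SE 0.16, adjusted p = 0.0192, lower in 3 of 3 libraries). The siTEAD1/2/3/4 library, at 206% of the siNC mean, stood 0.94 above it on the log2 scale. The start with 2 TEAD words, shown above, and the upstream start share 1 FPKM value per library, so that transcripts from them cannot be told apart.

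*ZNRF3* was at 3.12 and 3.01 FPKM in siNC, at 2.86, 4.14 and 4.42 FPKM in siHHEX, at 4.46 and 4.07 FPKM in siYAP/TAZ and at 4.40 FPKM in siTEAD1/2/3/4. All libraries but siHHEX 1 were above siNC. The log2 differences were 0.23 (95% CI -0.14 to 0.59, adjusted p = 0.286) in siHHEX, 0.37 (95% CI -0.02 to 0.77, adjusted p = 0.208) in siYAP/TAZ and 0.41 in siTEAD1/2/3/4, and none was called or past 1.5-fold. The siHHEX difference of *ZNRF3* was 0.38 without siHHEX 1, 0.13 without siHHEX 3 and 0.13 after the GC correction. *NKD1*, at chr16:50548396-50649249 on the plus strand, encodes an inhibitor that binds Dishevelled. Its values were 0.776 and 0.657 FPKM in siNC, 0.730, 0.660 and 0.846 FPKM in siHHEX, 0.828 and 0.582 FPKM in siYAP/TAZ and 0.931 FPKM in siTEAD1/2/3/4. The siHHEX and siYAP/TAZ libraries overlapped siNC, and the gene was not tested.

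Transcripts of the crypt stem cell genes were close to absent from the values. *LGR5*, at chr12:71439798-71586310, encodes the R-spondin receptor that marks these stem cells, and it was listed at 0 FPKM in all 8 libraries. *ASCL2*, at chr11:2268498-2270588, encodes their transcription factor and was listed at 0 in 7 libraries and at 0.045 FPKM in siHHEX 1. *LEF1*, at chr4:108047545-108168956, encodes a DNA-binding partner of beta-catenin and was listed at 0 in 7 libraries and at 0.012 FPKM in siYAP/TAZ 2. All 77 ribosomal protein genes had values above 0 in every library. The depth behind these values is unknown, so no upper limit is given. *TCF7*, at chr5:134114681-134151865, another such partner, was at 1.55 and 1.58 FPKM in siNC, at 1.75, 2.13 and 2.28 FPKM in siHHEX, at 2.29 and 1.46 FPKM in siYAP/TAZ and at 1.91 FPKM in siTEAD1/2/3/4. The siHHEX libraries were above siNC and the siYAP/TAZ libraries lay on both sides of it. Its log2 difference was 0.25 (95% CI -0.10 to 0.59, adjusted p = 0.230) in siHHEX and 0.15 (95% CI -0.23 to 0.53, adjusted p = 0.610) in siYAP/TAZ.

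*MYC* encodes the transcription factor that drives growth and ribosome production and is a target of beta-catenin in colorectal cancer. It was at 89.1 and 91.0 FPKM in siNC, at 73.5, 94.3 and 78.2 FPKM in siHHEX, at 67.6 and 54.4 FPKM in siYAP/TAZ and at 48.6 FPKM in siTEAD1/2/3/4. The siHHEX libraries overlapped siNC, with siHHEX 2 the highest of all 8, and the siYAP/TAZ and siTEAD1/2/3/4 libraries were the 3 lowest. The siYAP/TAZ mean of 61.0 ± 9.33 FPKM (n = 2) was 67.7% of the siNC mean. The log2 difference of -0.56 (95% CI -0.91 to -0.22, unadjusted p = 0.00489, adjusted p = 0.0545 in limma) just missed the threshold. The adjusted p was 0.0329 with median scaling, 0.0357 in a fit of these groups alone, 0.161 with no filter, 0.271 without siNC 1 and 0.293 without siNC 2. Without siYAP/TAZ 2 the difference was -0.41 (adjusted p = 0.288), and without siYAP/TAZ 1 it was -0.72 (adjusted p = 0.0467). In siHHEX it was -0.14 (95% CI -0.46 to 0.17), and it was -0.07 without siHHEX 1 and -0.24 without siHHEX 2. *MYC* was higher in siHHEX than in siYAP/TAZ by 0.42 (SE 0.14, adjusted p = 0.0402, higher in 3 of 3 libraries). In siTEAD1/2/3/4 it stood at 53.9% of the siNC mean, a log2 difference of -0.88.

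The values of these target genes thus did not share a direction, though none was called against siNC and siTEAD1/2/3/4 was not tested. *MYC* stood below the siNC mean in both siYAP/TAZ libraries and in the siTEAD1/2/3/4 library, where *AXIN2*, *RNF43* and *ZNRF3* stood above it. Of the 6 tested genes, 3 in siHHEX (*CTNNB1*, *AXIN2* and *TCF7*) and 5 in siYAP/TAZ (all but *TCF7*) did not overlap siNC, beside 66.9% and 67.7% of all tested genes. Between siHHEX and siYAP/TAZ, fewer of the 6 genes were called without siYAP/TAZ 2, alone or together with siHHEX 3. Fewer of all tested genes were also called in these fits. The fit without siYAP/TAZ 1 rests on a lone siYAP/TAZ library as well and lost fewer calls. Why the loss was larger without siYAP/TAZ 2 was not tested. Without siYAP/TAZ 2 the difference was -0.31 for *CTNNB1* (adjusted p = 0.156) and 0.27 for *MYC* (adjusted p = 0.263), whereas for *RNF43* it stayed at -0.60 (adjusted p = 0.0944). Without siNC 1 or siNC 2 the differences did not move, and with the changed estimate of the spread *CTNNB1* (adjusted p = 0.0563 in both cases) and *MYC* (0.0729 and 0.0730) were no longer called. The *CTNNB1* call was also lost without siHHEX 1 (-0.35, adjusted p = 0.0660). The *MYC* call was lost without siHHEX 2 (0.32, adjusted p = 0.0636) or siHHEX 3 (0.45, adjusted p = 0.0558), and the *RNF43* call without siYAP/TAZ 1 (-0.60, adjusted p = 0.0712). With median scaling, which moved the median of all genes in this comparison from -0.13 to 0.03, *MYC* was called (0.62, adjusted p = 0.00944) and *CTNNB1* (-0.20, adjusted p = 0.159) and *RNF43* (-0.42, adjusted p = 0.0600) were not.

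GC content moved with the siHHEX values. Over the 10605 tested genes with a matched transcript, the log2 difference from siNC rose with the GC content of the transcript in each siHHEX library (Spearman rho 0.679, 0.599 and 0.755 across genes, which share a library and are no replicates), while rho was 0.060 and -0.052 in siYAP/TAZ and 0.298 in siTEAD1/2/3/4. The median siHHEX difference was -0.31 for genes with 40 to 45% GC, which include *CTNNB1* (44.7% GC), and 0.16 for those with 50 to 55% GC, which include *AXIN2* (53.1%), *ZNRF3* (53.5%) and *RNF43* (54.2%). Once a correction for GC content and transcript length was made, the siHHEX difference of *CTNNB1* went from -0.22 to 0.01, that of *TCF7* from 0.25 to -0.0047, that of *AXIN2* from 0.50 to 0.39 and that of *RNF43* from 0.05 to -0.08. Between siHHEX and siYAP/TAZ, *RNF43* was still called after the correction (-0.74, adjusted p = 0.0247), and *CTNNB1* (-0.19, adjusted p = 0.235) and *MYC* (0.45, adjusted p = 0.0624) were not. In siYAP/TAZ the correction brought *RNF43* (0.66, adjusted p = 0.0365) and *MYC* (-0.54, adjusted p = 0.0412) past the threshold. Their differences before it were 0.65 and -0.56, and the calls over all tested genes in siYAP/TAZ went from 884 to 1326 with it. The crossing is thus not particular to these genes.

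**Figure D3:**
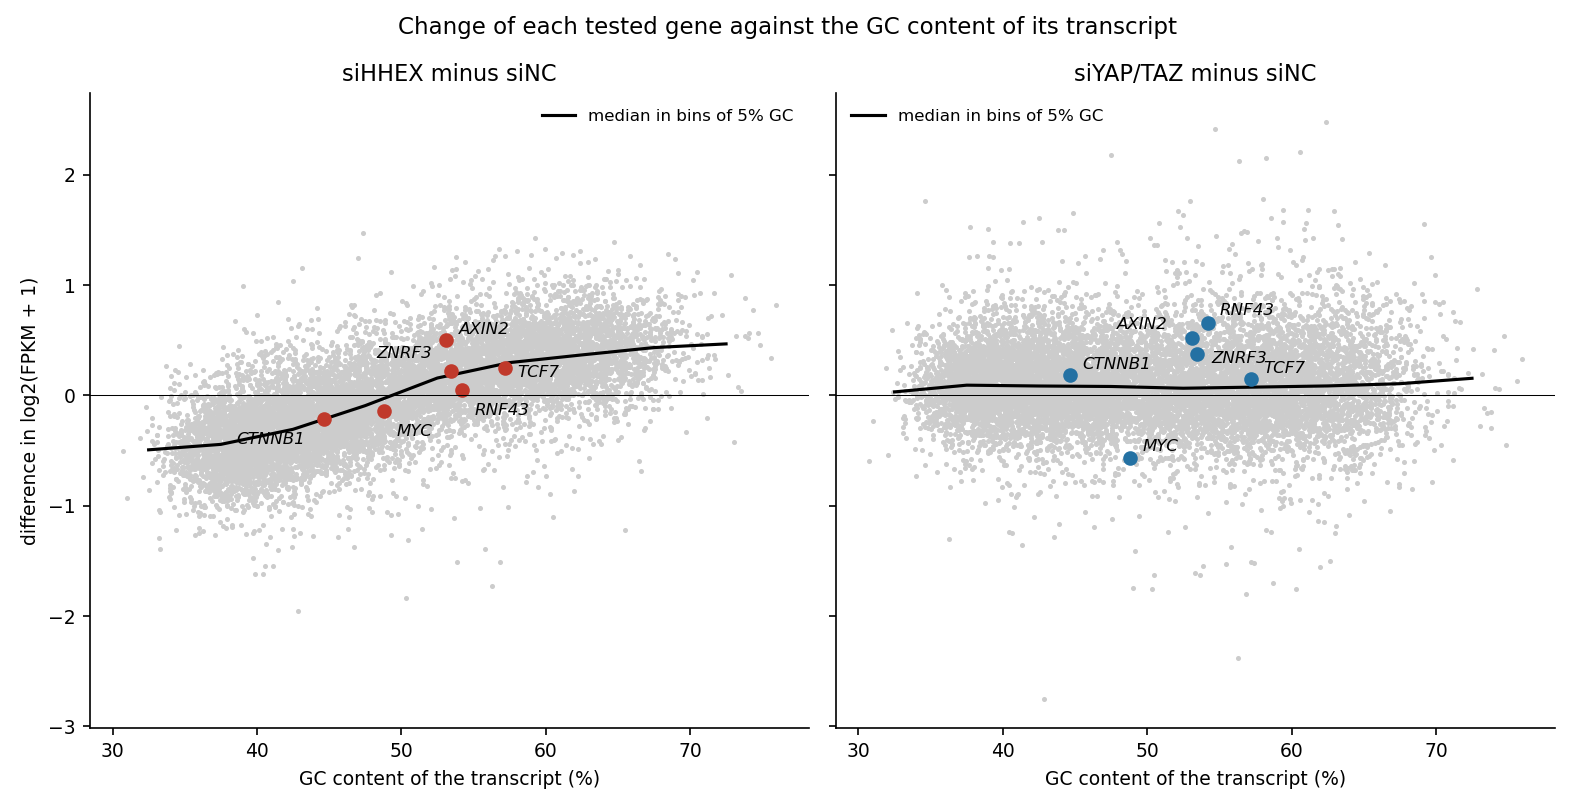
Difference from siNC in log2(FPKM + 1) of each tested gene with a matched transcript (gray) against the GC content of that transcript in percent, in siHHEX (left) and siYAP/TAZ (right), with the median in bins of 5% GC as a black line and the 6 tested Wnt and beta-catenin genes in color. The median rises from -0.49 at 30 to 35% GC to 0.47 at 70 to 75% GC in siHHEX and stays between 0.03 and 0.16 in siYAP/TAZ.

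The rest of the pathway was followed through 132 other genes in 8 lists, of which 85 passed the filter. In siHHEX 25 of the 85 were called, 14 higher and 11 lower, or 29.4%, beside 32.9% of all tested genes (16% higher and 16.9% lower). The GC and length correction left 5 of these 25 called, and with it the calls over all tested genes in siHHEX went from 3518 to 649. In siYAP/TAZ 8 of the 85 were called, 5 higher and 3 lower, or 9.41%, beside 8.28% of all tested genes (6.15% higher and 2.13% lower). All 8 were still called after the correction, with which the calls over all tested genes in siYAP/TAZ went from 884 to 1326. The higher calls of siHHEX and of siYAP/TAZ include *EPHB2*, which passed the filter only through these groups, where it was high. Its calls are no result, so neither share is read against that of all tested genes. In siTEAD1/2/3/4, 9 of the 85 were past 1.5-fold, 6 higher and 3 lower, or 10.6%, beside 6.33% of all tested genes (4.15% higher and 2.18% lower). The 6 include *NOTUM*, which passed the filter only through the knockdown libraries, so this share is not read against that of all tested genes either. With siNC 1 or siNC 2 left out, fewer of the 85 and fewer of all tested genes were called in siHHEX and in siYAP/TAZ. These fits rest on a lone siNC library, so the loss is not read as a result about the pathway genes.

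Among 19 Wnt ligands, 6 passed the filter and 3 were listed at 0 in every library. The most abundant was *WNT16*, at 26.1 and 25.4 FPKM in siNC, 21.9, 29.8 and 42.2 FPKM in siHHEX, 35.1 and 28.7 FPKM in siYAP/TAZ and 26.9 FPKM in siTEAD1/2/3/4. *WNT3A*, a ligand that signals through beta-catenin, was the 1 called ligand of 6 in siHHEX (16.7% beside 32.9% of all tested genes), at 2.66, 2.87 and 3.51 FPKM against 1.74 and 1.84 FPKM in siNC (log2 difference 0.52, adjusted p = 0.0333, and 0.14 with adjusted p = 0.532 after the GC correction). No ligand was called in siYAP/TAZ, beside 8.28% of all tested genes. *WLS*, which carries Wnt proteins to the cell surface, was at 17.0 and 16.2 FPKM in siNC and at 27.1 and 21.4 FPKM in siYAP/TAZ, and neither gene of ligand secretion was called there.

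Of 13 receptors and co-receptors that passed, 1 rose and 3 fell in siHHEX, or 30.8% beside 32.9% of all tested genes, and 0 were called in siYAP/TAZ beside 8.28%. *FZD6*, a Frizzled receptor, fell from 16.3 and 15.0 FPKM to 6.54, 7.59 and 8.71 FPKM in siHHEX (log2 difference -0.96, SE 0.15, adjusted p = 0.00492), where the GC correction left -0.51 (adjusted p = 0.1001). *RYK*, a Wnt-binding receptor without an active kinase and the highest of the list in mean siNC FPKM, went from 21.7 and 20.8 FPKM to 13.2, 15.7 and 12.9 FPKM (-0.58, adjusted p = 0.0116, and -0.40 with adjusted p = 0.0543 after the correction). *PTK7*, a Wnt co-receptor, was at 20.8 and 20.9 FPKM in siNC and above *RYK* in every knockdown library. Between siHHEX and siYAP/TAZ 6 of the 13 were called, 1 higher and 5 lower, or 46.2%, beside 39.3% of all tested genes (13.5% higher and 25.9% lower). Of these, only *FZD6* (-1.11, adjusted p = 0.00406 in limma) was still called after the GC correction (-0.69, adjusted p = 0.0399).

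Only 4 of 18 secreted agonists and antagonists passed, and 5 were listed at 0 in every library. *DKK1*, a secreted antagonist that binds the LRP co-receptors and is itself a target of beta-catenin, was at 366 and 348 FPKM in siNC. It fell to 164, 181 and 178 FPKM in siHHEX (log2 difference -1.03, SE 0.15, adjusted p = 0.00429) and to 157 and 228 FPKM in siYAP/TAZ (-0.91, SE 0.16, adjusted p = 0.0156), and it was at 143 FPKM in siTEAD1/2/3/4. No knockdown library overlapped siNC, and *DKK1* was still called after the GC correction in siHHEX (-0.86) and siYAP/TAZ (-0.88). *KREMEN1*, which encodes a receptor for DKK proteins, rose from 2.87 FPKM in both siNC libraries to 4.52, 5.11 and 5.01 FPKM in siHHEX (0.60, adjusted p = 0.00961, and 0.43 with adjusted p = 0.0506 after the correction) and 4.91 and 4.55 FPKM in siYAP/TAZ (0.56, adjusted p = 0.0345, still called after it).

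**Figure D4:**
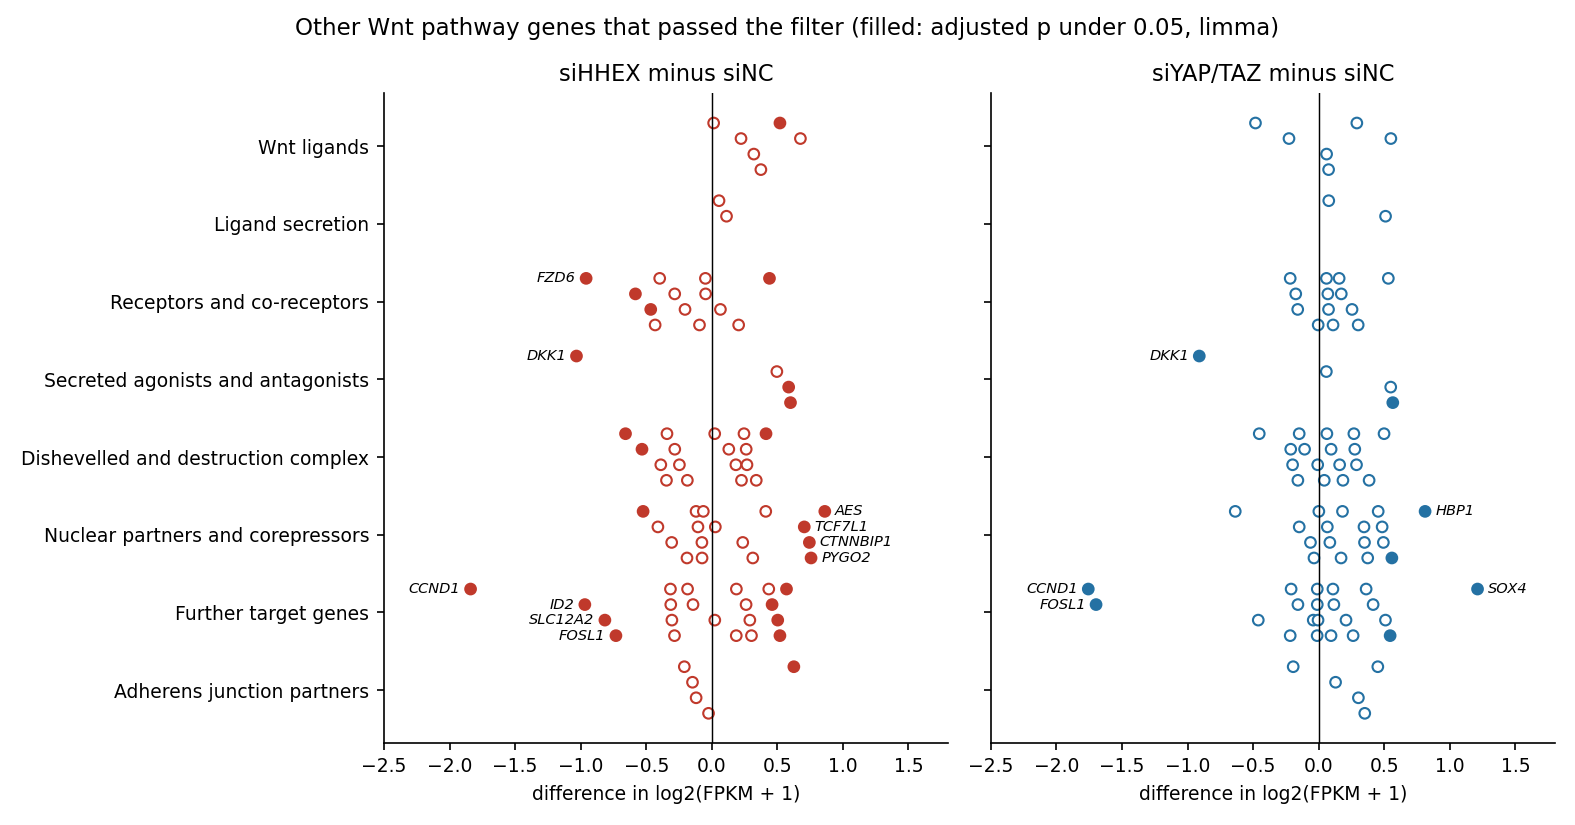
Differences from siNC in log2(FPKM + 1) of the 85 other Wnt pathway genes that passed the filter, a point per gene in its list, in siHHEX (left) and siYAP/TAZ (right), where filled points have an adjusted p under 0.05 in limma and called genes beyond 0.7 are named. *CCND1* lies farthest to the left in siHHEX (-1.84) and in siYAP/TAZ (-1.76), and most lists have points on both sides of 0.

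In the list of Dishevelled and the destruction complex, 1 of 17 genes rose and 2 fell in siHHEX, or 17.6% beside 32.9% of all tested genes, and 0 were called in siYAP/TAZ beside 8.28%. *PPP2R1A*, the scaffold of protein phosphatase 2A and the most abundant of the list, rose from 80.7 and 82.7 FPKM to 103, 100 and 127 FPKM in siHHEX (0.41, adjusted p = 0.0332). *TNKS2*, a tankyrase that marks AXIN proteins for degradation, fell by 0.66 (adjusted p = 0.0232) and *CSNK1A1*, the casein kinase that primes beta-catenin for degradation, by 0.53 (adjusted p = 0.0157) on the log2 scale. After the GC correction the differences were 0.31 for *PPP2R1A* (adjusted p = 0.127), -0.28 for *TNKS2* (adjusted p = 0.224) and -0.12 for *CSNK1A1* (adjusted p = 0.530), none of them called. Between siHHEX and siYAP/TAZ 7 of the 17 were called, 2 higher and 5 lower, or 41.2%, beside 39.3% of all tested genes (13.5% higher and 25.9% lower). Of these, only *PPP2R1A* (0.52, adjusted p = 0.0285) and *TNKS2* (-0.525, adjusted p = 0.0436) were still called after the GC correction.

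Of 17 nuclear partners and corepressors that passed, 4 rose and 1 fell in siHHEX, or 29.4% beside 32.9% of all tested genes, and 2 rose in siYAP/TAZ, or 11.8% beside 8.28%. *AES*, an alias of *TLE5*, encodes a short member of the Groucho corepressor family and was the most abundant of the list. It rose from 45.2 and 44.9 FPKM to 72.5, 78.1 and 99.7 FPKM in siHHEX (0.86, adjusted p = 0.00669, and 0.45 with adjusted p = 0.0686 after the GC correction). *PYGO2*, a coactivator that links beta-catenin to chromatin, rose by 0.76 (adjusted p = 0.00929) and was still called after the correction (0.51, adjusted p = 0.0449). *CTNNBIP1*, which encodes a protein that keeps beta-catenin from TCF proteins, rose from 2.32 and 2.41 FPKM to 4.24, 4.52 and 5.19 FPKM in siHHEX (0.74, adjusted p = 0.00669) and to 3.76 and 4.16 FPKM in siYAP/TAZ (0.56, adjusted p = 0.0426), and both calls remained after the correction. Over the 15 alternatives *CTNNBIP1* was called in 12 in siHHEX and in 7 in siYAP/TAZ. *HBP1*, a repressor of TCF activity, rose in siYAP/TAZ from 2.48 and 2.43 FPKM to 3.84 and 6.60 FPKM (0.81, adjusted p = 0.0426). The log2 difference was 0.48 in siYAP/TAZ 1 and 1.14 in siYAP/TAZ 2, and the gene was called in 7 of 15 alternatives.

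Of 21 further target genes that passed, 4 were called higher and 4 lower in siHHEX, or 38.1% beside 32.9% of all tested genes, and 2 higher and 2 lower in siYAP/TAZ, or 19% beside 8.28%. *CCND1*, the gene of cyclin D1, which drives entry into the cell cycle, was at 420 and 441 FPKM in siNC, 119, 147 and 97.6 FPKM in siHHEX, 159 and 101 FPKM in siYAP/TAZ and 174 FPKM in siTEAD1/2/3/4. It fell by 1.84 (SE 0.21, adjusted p = 0.00346) in siHHEX and by 1.76 (SE 0.23, adjusted p = 0.00612) in siYAP/TAZ on the log2 scale, and it is also a known target of other pathways, YAP-TEAD among them. *FOSL1*, a part of the AP-1 transcription factor, fell from 148 and 147 FPKM to 79.9, 82.6 and 104 FPKM in siHHEX (-0.73, adjusted p = 0.0248, and -1.11 with adjusted p = 0.0187 after the GC correction) and to 57.8 and 34.5 FPKM in siYAP/TAZ (-1.70, adjusted p = 0.00615), and it was higher in siHHEX than in siYAP/TAZ by 0.97 (adjusted p = 0.00831, and 0.57 with adjusted p = 0.0841 after it). *ID2*, an inhibitor of basic helix-loop-helix factors, fell in siHHEX from 57.4 and 53.7 FPKM to 26.6, 40.7 and 20.0 FPKM (-0.97, adjusted p = 0.0231, and -0.82 with adjusted p = 0.0734 after the GC correction). The 2 genes called higher in siYAP/TAZ, named after their values were seen, were *SOX4* (1.21, adjusted p = 0.0187) and *EPHB2*. *EPHB2* was at 0.601 and 0.609 FPKM in siNC and 0.923 FPKM in siTEAD1/2/3/4 and reached 1 FPKM only in siHHEX and siYAP/TAZ, and it is counted among the calls of both. It passed the filter only through the groups where it was high and had to differ, so its calls are no result. The 38.1% and 19% above include it, so neither is read against the share of all tested genes. Of the 5 adherens junction partners, *CTNNA1*, alpha-catenin, was the most abundant at 48.4 and 48.9 FPKM in siNC, and *JUP*, plakoglobin, a close relative of beta-catenin, was the 1 called gene in siHHEX (20% beside 32.9% of all tested genes, log2 difference 0.63, adjusted p = 0.0481, and 0.31 with adjusted p = 0.302 after the GC correction).

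The genes whose pattern was most like that of *AXIN2* over the 8 libraries were *NOTUM* (Pearson's r 0.97 on log2(FPKM + 1)), *SYT17* (0.96) and *COG8* (0.95), given as a description of libraries that share the siNC group and their depth. *NOTUM* encodes an enzyme that inactivates Wnt proteins and is a known target of beta-catenin. Its values were 0.629 and 0.974 FPKM in siNC, 1.48, 2.08 and 1.12 FPKM in siHHEX, 1.39 and 1.88 FPKM in siYAP/TAZ and 2.27 FPKM in siTEAD1/2/3/4. It was chosen for this likeness, so its order of libraries is no separate finding, and it passed the filter only through the knockdown libraries, so no test is given. Among the other tested Wnt and beta-catenin genes, r with *AXIN2* was 0.51 for *ZNRF3*, 0.41 for *RNF43*, 0.25 for *TCF7*, -0.01 for *CTNNB1* and -0.41 for *MYC*.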

How the data were processed

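RNA-seq of 8 HCT-116 libraries was used. The authors deposited 1 FPKM value per gene and library. Per the labels, processing used Trimmomatic 0.36, HISAT2 2.0.5, Cufflinks 2.2.1 and HTSeq 0.9.1, in roles that, like the genome build, are not given in the sources used here. FPKM hold no read counts, so depth is unknown, and relative depth came from the spacing of the lowest values. Of 20030 rows, 20028 names were distinct and 27 rows were named by a date. The 10677 genes that reached 1 FPKM in 2 libraries or more entered limma 3.58.1 in R 4.3.3 (trend, 1 fit of 4 groups, Benjamini-Hochberg adjustment over all) on log2(FPKM + 1). This scale understates changes of low genes. The test planned by the study, DESeq, needs counts and was not used. Coordinates, GC content and length came from GENCODE canonical transcripts. The GC correction used splines of 4 degrees of freedom. Python 3.11.15 made the tables. The genes, lists and tests were chosen with earlier results of these data known. Beside the 10 genes and the siRNA targets, the genes named were, per list, the highest in siNC and the 2 largest calls with 1 direction in all libraries of siHHEX and of siYAP/TAZ, plus the 3 most like *AXIN2*. *SOX4*, *EPHB2*, *PTK7* and the markers *KRT20*, *VIL1*, *LGALS4*, *COL1A1*, *COL3A1*, *CDH5*, *PECAM1* and *VWF* were named outside this rule, after their values were seen.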

Additional observations from a re-analysis of the deposited data

How the results depend on the processing

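The siRNA knockdowns have 3, 2 and 1 libraries, and calls near the threshold moved with several choices. Of the 6 tested genes, 0 were called in siHHEX, 0 in siYAP/TAZ and 3 between these groups. Leaving out 1 library at a time gave 0 to 1, 0 to 1 and 0 to 2, and a fit of only the groups compared 0, 2 and 1. No filter on low values gave 0, 0 and 0, and median scaling 1, 1 and 1. The GC and length correction gave 0, 2 and 1, and leaving out both siHHEX 3 and siYAP/TAZ 2, chosen after the data were seen, 1, 0 and 1. A pseudocount of 0.1 changed none of these counts. In siTEAD1/2/3/4, 3 genes were past 1.5-fold and 0 past 2-fold, and 2 were past 1.5-fold with median scaling or without siNC 1.

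Among the 85 other pathway genes, 25, 8 and 28 were called. No filter gave 10, 0 and 13, the groups compared alone 14 in siYAP/TAZ, median scaling 4 in siYAP/TAZ, the GC correction 7 in siHHEX and 7 between the groups, and leaving out the 2 libraries 5 in siYAP/TAZ and 11 between the groups. With 1 library left out the counts ran from 1 to 30, 0 to 10 and 7 to 33. Over all genes the calls numbered 3518, 884 and 4200, against 987, 208 and 2210 with no filter, 1759 in siYAP/TAZ with the groups compared alone, 649 in siHHEX and 933 between the groups with the GC correction, and 298 in siYAP/TAZ and 1290 between the groups without the 2 libraries. With 1 library left out they ran from 19 to 4839, 15 to 1317 and 1026 to 5161, and the lowest counts against siNC came with 1 siNC library, whose lone sample is then assumed to vary like the other groups. The cause of these shifts was not tested.

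Libraries with the same replicate number did not deviate together (Pearson's r of their deviations from the group means -0.0704 to 0.0215 across genes). In a group of 2 the deviations mirror each other, and in the knockdowns they also hold differences between siRNAs. These values therefore cannot tell whether the numbers pair the samples. With the replicate block, 1, 1 and 1 of the 6 genes and 2062 of all genes in siHHEX were called. The GC correction with the replicate block gave 0, 2 and 1 of the 6 genes, 5 pathway genes in siHHEX and 1 between the groups, and 153 of all genes in siHHEX and 271 between the groups.

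The sign turned only for differences that were not called. In siHHEX, *CTNNB1* went to 0.012 with the GC correction. *RNF43* went to -0.069 with the replicate block or without siHHEX 3 and siYAP/TAZ 2, to -0.084 with the GC correction and to -0.18 with that correction and the block, and ran from -0.069 to 0.20 with 1 library left out. *TCF7* went to -0.0047 with the GC correction and to -0.020 with the block added. In siYAP/TAZ, *TCF7* ran from -0.062 to 0.36 with 1 library left out. Between the groups, *AXIN2* went to 0.12 with the replicate block, 0.15 with median scaling, 0.026 with the GC correction and block and 0.25 without the 2 libraries, and ran from -0.21 to 0.12. *ZNRF3* went to 0.012 with median scaling and ran from -0.24 to 0.0041. *TCF7* went to -0.17 with the GC correction or without the 2 libraries and to -0.18 with the correction and block, and ran from -0.11 to 0.31. Of 90 values per comparison (6 genes under 15 alternatives), 78 in siHHEX, 77 in siYAP/TAZ and 51 between the groups kept their direction and side of the threshold. *RNF43* between the groups was called in 11 of 15 alternatives, *CTNNB1* and *MYC* in 4 each, *AXIN2* in siHHEX in 4, and *RNF43* and *MYC* in siYAP/TAZ in 6 and 5. The depth is unknown, which leaves the limit of detection of *LGR5*, *ASCL2* and *LEF1* unknown.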
